A study of Rattus norvegicus with 6 samples.

Results

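The miRNAs miR-144, miR-451 and miR-486 are the characteristic microRNAs of red blood cells, and they were followed here through 6 libraries of rat medial prefrontal cortex, a frontal brain area involved in mood and in the stress response. Every row of the expression table named rno-miR-144, rno-miR-451 or rno-miR-486, with or without an arm suffix, was taken, and predicted miRNAs were left out. This gave 5 of the 1465 rows, namely miR-144-5p, miR-144-3p, miR-451-5p, miR-451-3p and miR-486. Of these, 4 had a value in every library and miR-451-3p was blank in all 6.

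The CMS group held 3 rats that went through chronic mild stress, a rodent model of depression, for 4 weeks. The stressors came in random order and included foot shock, restraint, tail clipping, cage tilt, a reversed light and dark cycle, swimming in cold water, and withholding of food or water. The Control group held 3 rats kept for the same 4 weeks without these stressors, apart from handling and cage cleaning. Each library was made from total RNA of cortex tissue, and the labels state neither strain, sex or age nor whether the vessels were rinsed before the tissue was taken.

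In mouse and zebrafish, miR-144 and miR-451 are cut from one primary transcript that the red cell factor GATA1 switches on as red cells mature. The miR-451 hairpin has an unusual route, since Argonaute 2 and not Dicer cuts it, and the cell keeps the 5p strand. Mice without the pair have red cells that tolerate oxidative stress poorly. In mouse and human, miR-486 lies in an intron of Ank1, the gene of a red cell membrane skeleton protein, and it is also made in muscle. Mature red cells carry these miRNAs through the vessels of every tissue, so in a piece of brain they can serve as a gauge of the blood left in it.

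The mature sequences of the 4 members that RefSeq lists in the GRCr8 assembly show that the arms come from neighbouring hairpins but carry unrelated seeds. Capitals mark the seed, bases 2 to 8 from the 5′ end, with which a miRNA recognises its targets.
miR-451-5p: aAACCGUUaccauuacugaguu
miR-451-3p: aUGGUAAUgguucucuugcugcu
miR-144-5p: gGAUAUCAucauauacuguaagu
miR-144-3p: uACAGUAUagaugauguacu
No other mature miRNA in that table has any of these seeds. With 1 base fewer, bases 2 to 7, miR-144-3p matches miR-101a-3p and miR-101b-3p, and miR-451-3p matches miR-1193-5p. In this tissue miR-144-3p was scarce and the miR-101 pair abundant, as the values further on show.

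The hairpins are shown because the 4 arms are cut from them, and capitals mark the mature arms. Both lie on the plus strand of chromosome 10, Mir144 at chr10:63459397-63459479 and Mir451a at chr10:63459569-63459640, with 89 bases between them.
Mir144: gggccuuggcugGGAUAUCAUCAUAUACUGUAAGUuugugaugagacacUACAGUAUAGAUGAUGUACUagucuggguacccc
Mir451a: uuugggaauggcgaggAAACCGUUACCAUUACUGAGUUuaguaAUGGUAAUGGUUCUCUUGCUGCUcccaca
In Mir144 the arms are separated by 14 bases, and in the shorter Mir451a, of 72 bases against 83, by 5. Mature arms were 20 to 23 bases long, and the values below are not divided by length.

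The deposited values are normalized and rounded, and library sums lay between 709674 and 736078. With the read depth unknown, counting intervals are left out, and rounding makes the lowest values coarse. The 5 rows together held between 0.0244% and 0.0602% of a library's total. The 4 neuronal miRNAs read as markers had values in every library, with miR-9a-5p between 52742 and 76696, miR-124-3p, a neuron-specific miRNA, between 2059 and 2562, and miR-138-5p between 667 and 1136. Neuronal miR-128-3p varied most, at 28999, 16153 and 19969 in CMS 1, 2 and 3, against 18158, 54214 and 54272 in Control 1, 2 and 3. Control 1 stood apart from the other Controls in miR-128-3p and in miR-204-5p, abundant in choroid plexus, at 1413 in Control 1, 687 in Control 2 and 652 in Control 3. No batch is named in the labels.

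The question put to these rows is how much the red cell signal varied between libraries and whether CMS and Control rats differed in it. No member passed the test between CMS and Control. The most abundant member, miR-451-5p, averaged 2.17-fold higher in CMS, while both arms of miR-144 averaged lower in CMS and miR-486 was nearly level. Within each group the 4 detected members were all highest, or tied for highest, in one and the same library, CMS 1 and Control 2. The share of all miRNAs highest in these libraries was not computed. CMS 1 also had the largest total of the CMS libraries (736020) and the most annotated miRNAs with a value (477). The ratios of miR-451-5p to the other 3 were higher in all CMS than in all Control libraries. These ratios share miR-451-5p, so they are not independent. Among single miRNAs, 25.9% of the 657 tested had groups without overlap, and the share among other ratios was not computed. With 3 libraries a group, no such difference could pass an exact permutation test at 0.05.

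For miR-451-5p, which in mouse red cell precursors represses the signalling adaptor Ywhaz, the values were 303, 154 and 197 in CMS 1, 2 and 3, against 64, 186 and 51 in Control 1, 2 and 3. The groups overlapped because Control 2 lay above CMS 2, and the highest library held 5.94 times the value of the lowest. Means were 218 ± 76.7 in CMS and 100.3 ± 74.5 in Control (SD, n = 3 each). The log2 difference, CMS minus Control, was 1.29 ± 0.54 (SE) and did not pass (limma adjusted p = 0.22). Without Control 2 the Control mean was 57.5 and the ratio of means 3.79, still without a call (limma adjusted p = 0.0981, the lowest of a range up to 0.473 over the alternatives tried). The 3p arm of this hairpin, miR-451-3p, gave no value in either group.

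For miR-486, which in mouse muscle represses Foxo1, the values were 132, 100 and 126 in CMS 1, 2 and 3, against 127, 146 and 117 in Control 1, 2 and 3. The groups overlapped, and this was the steadiest member, with a highest value 1.46 times its lowest. Means were 119.3 ± 17 in CMS and 130 ± 14.7 in Control (SD, n = 3 each). The log2 difference of -0.13 ± 0.16 (SE) did not pass (limma adjusted p = 0.651). The row carries no arm suffix, so the arm it counts is not stated.

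For miR-144-5p, the values were 5, 5 and 4 in CMS 1, 2 and 3, against 7, 11 and 6 in Control 1, 2 and 3. Every CMS library lay below every Control library, although only 1 unit separates the nearest values and all were rounded. Means were 4.67 ± 0.577 in CMS and 8 ± 2.65 in Control (SD, n = 3 each). The log2 difference of -0.63 ± 0.24 (SE) did not pass over all miRNAs (limma adjusted p = 0.192).

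For miR-144-3p, which in human red cells represses the oxidative stress factor NRF2, the values were 3, 1 and 1 in CMS 1, 2 and 3, against 2, 8 and 3 in Control 1, 2 and 3. The groups overlapped, and Control 2 alone stood above the rest. Means were 1.67 ± 1.15 in CMS and 4.33 ± 3.21 in Control (SD, n = 3 each), and the log2 difference of -0.92 ± 0.50 (SE) did not pass (limma adjusted p = 0.295). The ratio of means, CMS over Control, was 0.385, and it was 0.667 without Control 2 and 0.231 without CMS 1. The relatives with the same bases 2 to 7 were far higher, with miR-101a-3p at 14023.7 ± 1684.3 in CMS and 13207.7 ± 1362.8 in Control (SD, n = 3 each, limma adjusted p = 0.719). The level of miR-101b-3p was 6539 ± 437.6 in CMS and 5357.7 ± 774.8 in Control (SD, n = 3 each, limma adjusted p = 0.237).

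**Figure D1:**
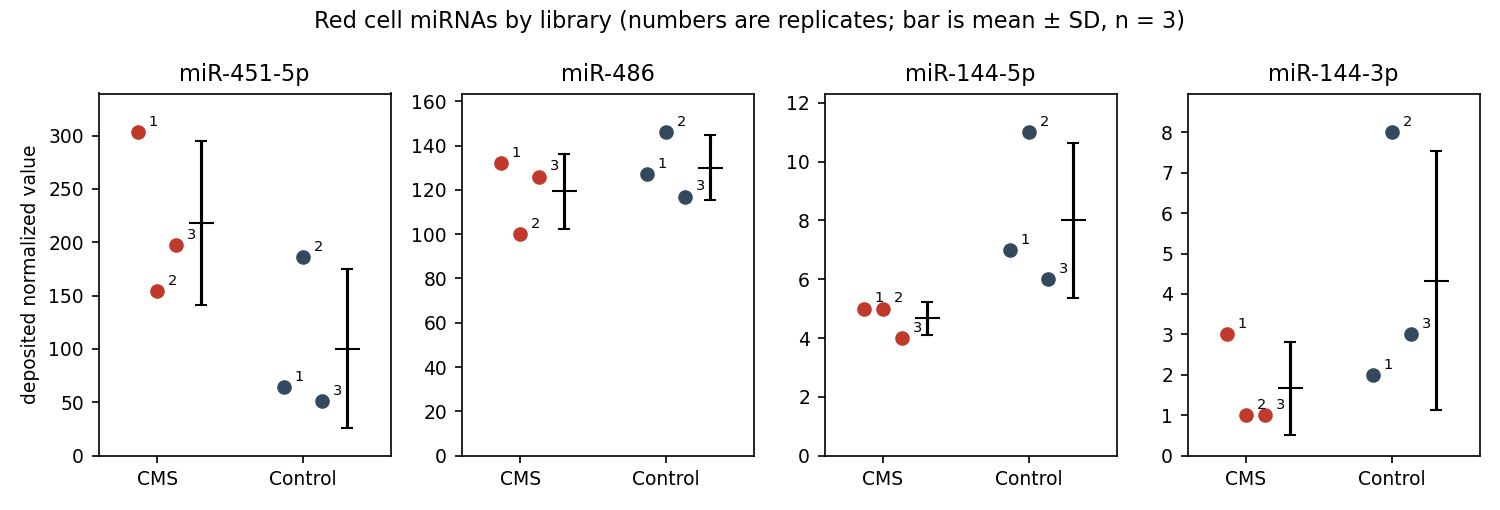
Deposited normalized value (vertical axes, each from 0 and with its own scale) of the 4 detected members in CMS and Control libraries. Points are libraries numbered by replicate and the bar is the mean ± SD (n = 3). Control 2 is the highest Control library in all 4 panels, and the groups are apart only for miR-144-5p, at 4 to 5 in CMS and 6 to 11 in Control.

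Of the 4 members tested, 0 were called, against 4.11% of all 657 miRNAs in the same comparison (limma, adjusted p under 0.05), and 1 was at an unadjusted p under 0.05, against 23.3% of all. Groups were apart for 1 of the 4, miR-144-5p, against 25.9% of all miRNAs in either direction and 6.24% in the direction lower in CMS. The median log2 difference of the 4 was -0.38, beside 0.08 over all miRNAs tested. In bulk tissue, a change in the number of red cells and a change in the amount of a miRNA per cell cannot be told apart.

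The order of levels was not the same in the 2 groups. The level of miR-451-5p exceeded that of miR-486 in 3 of 3 CMS libraries and in 1 of 3 Control libraries, so these neighbours in the order are not separated beyond their spread. This pair stood above both miR-144 arms in 6 of 6 libraries, and the 5p arm of miR-144 above its 3p arm in 6 of 6. Among the 694 annotated miRNAs, miR-451-5p ranked between 152 and 249 by library and miR-486 between 188 and 205. The miR-144 arms ranked between 340 and 380 for 5p and between 349 and 417 for 3p.

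Summed over the members, the values were 443, 260 and 328 in CMS 1, 2 and 3, against 200, 351 and 177 in Control 1, 2 and 3. Control 2 lay above CMS 2 and CMS 3, so the groups overlapped in the sum as well. The share of miR-451-5p in that sum was 68.4%, 59.2% and 60.1% in the CMS libraries, against 32%, 53% and 28.8% in the Control libraries. The sum thus consisted mostly of miR-451-5p in the CMS libraries and mostly of miR-486 in Control 1 and Control 3.

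Whether the members rise and fall together was examined over the 6 libraries by the correlation of log2(value + 1) for the 6 pairs of detected members. Over the libraries as they are, the median r was 0.416, and the pairs ranged from -0.187 for miR-144-5p and miR-451-5p to 0.864 for the arms of miR-144. Without Control 2 the median was 0.105. Positive pairs were 5 of 6, and 3 of 6 after quantile normalization. For the miR-144 arms, r was 0.864 (exact permutation p = 0.0389, adjusted over 6 pairs p = 0.233) and Spearman's rho 0.716 (exact permutation p = 0.139, adjusted p = 0.433). This relation rests on few libraries, since r was 0.187 without Control 2 and CMS 3, and 0.538 without Control 2 and CMS 2, which is as far from the median as CMS 3.

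For miR-144-3p and miR-486, r was 0.734 (exact permutation p = 0.1, adjusted p = 0.3) and rho 0.706 (exact permutation p = 0.144, adjusted p = 0.433). Without Control 2 and CMS 3 it was 0.796, and without Control 2 and CMS 2 it was -0.143. For miR-144-5p and miR-486, r was 0.561 (exact permutation p = 0.236, adjusted p = 0.472) and rho 0.493 (exact permutation p = 0.333, adjusted p = 0.447), with r at 0.362 without Control 2 and CMS 3. These pairs leaned the same way as the arms of miR-144, and none passed after adjustment.

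The pairs with miR-451-5p showed less. With miR-486, r was 0.27 (exact permutation p = 0.628, adjusted p = 0.887) and rho 0.486 (exact permutation p = 0.356, adjusted p = 0.447), with r at 0.507 without Control 1 and Control 3. With miR-144-3p, r was 0.0566 (exact permutation p = 0.967, adjusted p = 0.967) and rho 0 (exact permutation p = 1, adjusted p = 1), with r at -0.0821 without Control 2 and CMS 3 and -0.209 without Control 2 and CMS 2. With miR-144-5p, encoded on the same strand beside it, r was -0.187 (exact permutation p = 0.739, adjusted p = 0.887) and rho -0.464 (exact permutation p = 0.372, adjusted p = 0.447), with r at -0.815 without Control 2 and CMS 3. In all, 0 of the 6 pairs passed after adjustment and 1 was at an unadjusted Pearson p under 0.05.

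**Figure D2:**
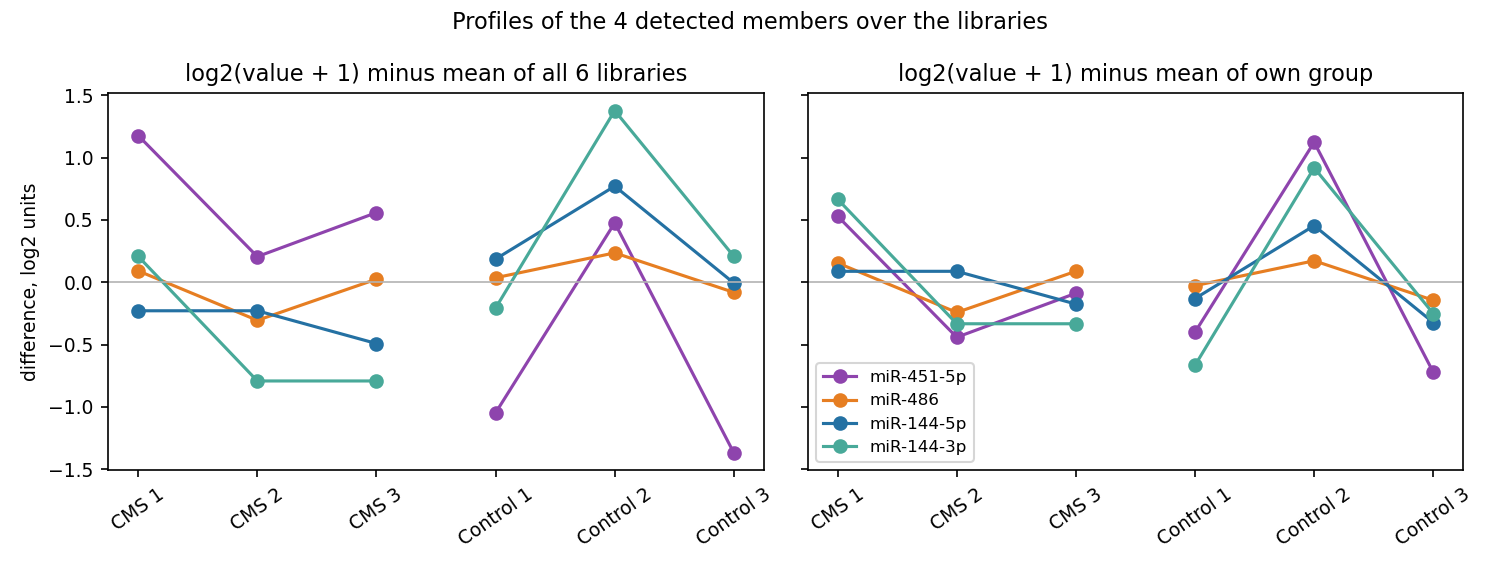
Log2(value + 1) of the 4 detected members by library, minus the mean of all 6 libraries on the left and minus the mean of the library's own group on the right. Lines link libraries of one group to guide the eye and replicates have no order. On the right all 4 members are highest in Control 2 among the Controls and in CMS 1, with 1 tie, among the CMS libraries.

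The picture differed when the mean of its group was taken from each member. Then r was positive for 6 of 6 pairs, with a median of 0.805 and a range from 0.458 to 0.908. It was 0.86 for miR-144-5p and miR-451-5p, 0.908 for miR-144-3p and miR-451-5p, and 0.836 for miR-451-5p and miR-486. These values are descriptions without a test, since subtracting 2 means leaves less than 6 independent points. Much of the pattern is Control 2: without it the median was 0.386 and 5 of 6 pairs stayed positive. It was also weaker for miR-144-5p within CMS alone, where that member hardly varied. There r was 0.156 with miR-451-5p and -0.358 with miR-486, against 0.997 and 0.991 within Control, each from 3 libraries.

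**Figure D3:**
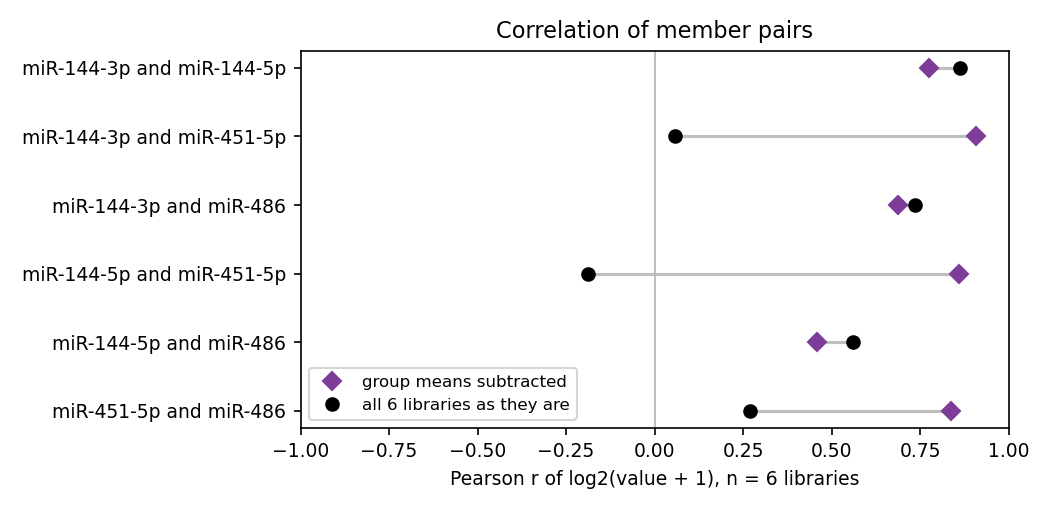
Pearson r of log2(value + 1) over 6 libraries (horizontal axis) for the 6 pairs of detected members. Circles are the libraries as they are and diamonds have each group's mean subtracted. For the 3 pairs with miR-451-5p the circles lie between -0.187 and 0.27 and the diamonds between 0.836 and 0.908.

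Control 2 held 186 of miR-451-5p, 3.23 times the mean of the other Controls, and 8 of miR-144-3p, 3.2 times their mean. Its miR-144-5p value of 11 was 1.69 times their mean and its miR-486 value of 146 was 1.2 times. The excess of Control 2 was large for miR-451-5p and small for miR-486. In CMS 1 the value of miR-451-5p was 1.73 times the mean of the other CMS libraries, that of miR-486 was 1.17 times and that of miR-144-5p was 1.11 times. In CMS 1, miR-144-3p was at 3, against 1 in each other CMS library.

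Apart from rounding, plain ratios between members within a library do not depend on a scaling factor common to that library. The 6 ratios compared were tested on log2(value + 1), where the added 1 weighs on the low miR-144 arms. For miR-451-5p over miR-144-3p, the log2 difference was 2.21, and 2.58 and 1.47 with pseudocounts of 0.1 and 10. The ratio of miR-451-5p to miR-144-5p was 60.6, 30.8 and 49.3 in CMS 1, 2 and 3, against 9.14, 16.9 and 8.5 in Control 1, 2 and 3. All CMS libraries lay above all Control libraries. On the scale of log2(value + 1) this ratio averaged 5.22 ± 0.49 in CMS and 3.29 ± 0.58 in Control (SD, n = 3 each), a difference of 1.93. The two-sided exact permutation p was 0.1 (adjusted p = 0.2), and 0.1 is the smallest p that 3 against 3 libraries can give.

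The ratio of miR-451-5p to miR-144-3p also separated the groups, with log2 means of 6.38 ± 0.21 in CMS and 4.17 ± 0.41 in Control (SD, n = 3 each; exact permutation p = 0.1, adjusted p = 0.2). The ratio of miR-451-5p to miR-486 was 2.3, 1.54 and 1.56 in CMS 1, 2 and 3, against 0.504, 1.27 and 0.436 in Control 1, 2 and 3. Here too the groups did not overlap, with log2 means of 0.82 ± 0.33 in CMS and -0.60 ± 0.83 in Control (SD, n = 3 each; exact permutation p = 0.1, adjusted p = 0.2). Control 2, the Control library with the highest red cell values, lay below every CMS library in each of these 3 ratios. All 3 have miR-451-5p on top, so they are not independent observations.

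The 3 ratios without miR-451-5p overlapped between the groups. The log2 ratio of miR-486 to miR-144-5p averaged 4.40 ± 0.30 in CMS and 3.90 ± 0.25 in Control, and that of miR-486 to miR-144-3p averaged 5.57 ± 0.47 in CMS and 4.78 ± 0.70 in Control (SD, n = 3 each; exact permutation p = 0.2, adjusted p = 0.24 for each). The log2 ratio of the miR-144 arms, 5p over 3p, averaged 1.16 ± 0.52 in CMS and 0.88 ± 0.50 in Control (SD, n = 3 each; exact permutation p = 0.6, adjusted p = 0.6).

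**Figure D4:**
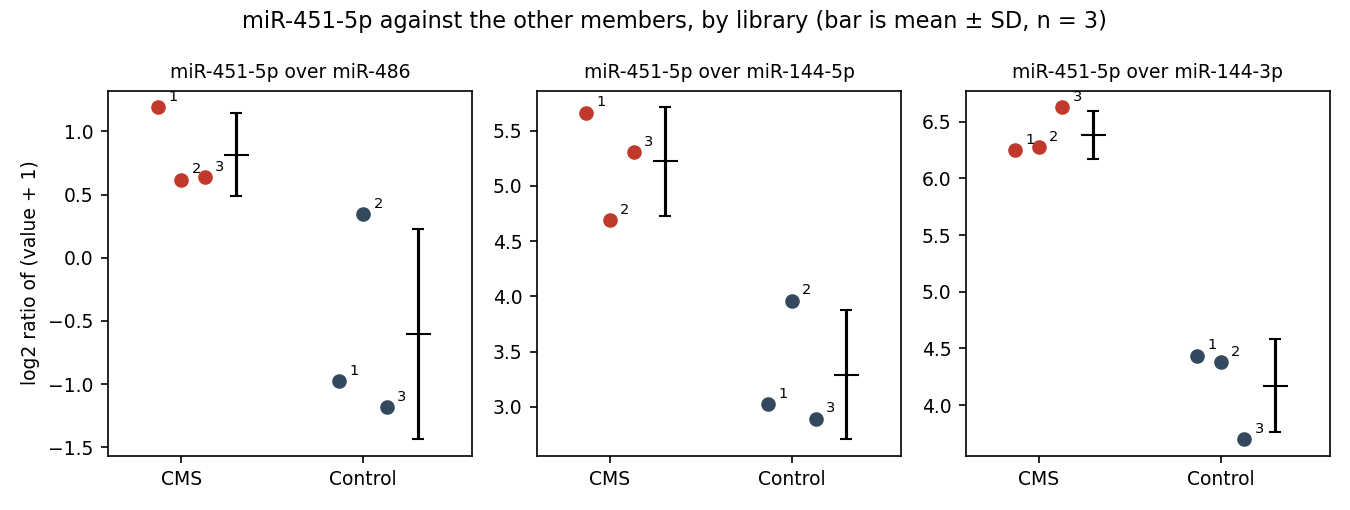
Log2 ratio of (value + 1) of miR-451-5p to miR-486, miR-144-5p and miR-144-3p (vertical axes, not starting at 0) in CMS and Control libraries. Points are libraries numbered by replicate and the bar is the mean ± SD (n = 3). All CMS points lie above all Control points in each panel, by the least for miR-486, where the lowest CMS value is 0.62 and the highest Control value 0.35.

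Other miRNAs abundant in red cells and blood, many of which brain cells also make, were read from a list of 13. None of the 13 passed, 5 had all CMS values above all Control values and 0 had them all below, against 19.6% of all miRNAs on the higher side and 6.24% on the lower. The median log2 difference was 0.34, beside 0.08 over all miRNAs tested. The cell cycle linked miR-25-3p was at 776.7 ± 34.5 in CMS and 511.3 ± 62.5 in Control (limma adjusted p = 0.0517). The level of miR-93-5p was 427.3 ± 23.1 in CMS and 280 ± 40.1 in Control (limma adjusted p = 0.0559). For miR-15b-5p the means were 17 ± 3.46 in CMS and 10.3 ± 3.21 in Control (limma adjusted p = 0.184), and for miR-107-3p they were 972.7 ± 31.9 in CMS and 778.3 ± 136.9 in Control (limma adjusted p = 0.226). Not all rows leaned that way. The means of miR-106b-5p were nearly level, at 107 ± 16.4 in CMS and 105.7 ± 10.2 in Control. Those of miR-15a-5p were lower in CMS, at 34 ± 5.2 against 46.7 ± 9.29 in Control (limma adjusted p = 0.245). The summed list was highest in CMS 2 and Control 1, which were not the libraries highest in the red cell members.

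Of 8 white cell and platelet miRNAs, none passed. Their values summed to 5381, 5307 and 5339 in CMS 1, 2 and 3, against 5841, 5363 and 5706 in Control 1, 2 and 3. Among the CMS libraries the sum was highest in CMS 1, by little, and among the Controls it was lowest in Control 2. Most of it was miR-146b-5p. The lymphocyte miRNA miR-150-5p was at 707 ± 110.4 in CMS and 423.7 ± 10.4 in Control (limma adjusted p = 0.0505). Its values were 806, 588 and 727 in CMS 1, 2 and 3, against 432, 427 and 412 in Control 1, 2 and 3, in the same order within CMS as miR-451-5p and nearly level within Control. The level of miR-146b-5p was 3602 ± 207.6 in CMS and 4310 ± 218.3 in Control (limma adjusted p = 0.162), and that of miR-342-3p was 586 ± 102.9 in CMS and 439 ± 80.6 in Control (limma adjusted p = 0.238). The blood cell miRNA miR-142-3p was at 8.67 ± 2.52 in CMS and 15.3 ± 5.51 in Control (limma adjusted p = 0.245). The defining neutrophil and platelet miRNA miR-223-3p was near 0 throughout, at 3, 1 and 3 in CMS 1, 2 and 3, against 0, 2 and 2 in Control 1, 2 and 3.

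Of 2 endothelial and 4 mural miRNAs of the vessel wall, none passed. The endothelial rows, miR-126a-3p and miR-126a-5p, summed to 13667, 9152 and 10935 in CMS 1, 2 and 3, against 7906, 9926 and 9702 in Control 1, 2 and 3. The mural rows of miR-143 and miR-145, made by smooth muscle cells and pericytes, summed to 16835, 10009 and 12118 in CMS 1, 2 and 3, against 10186, 12569 and 12171 in Control 1, 2 and 3. CMS 1 and Control 2 were the highest of their group in both sums, which are mostly miR-126a-3p and miR-143-3p, though Control 2 exceeded Control 3 by little. Single rows differed among the Controls, with miR-145-5p highest in Control 1 (473, against 417 in Control 2) and miR-143-5p highest in Control 3 (58, against 49 in Control 2). Among these rows, miR-145-5p was apart between the groups, at 709.7 ± 212.1 in CMS and 405.3 ± 74.2 in Control (limma adjusted p = 0.145). The part of vessel content in the values of miR-451-5p was not tested.

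Muscle miRNAs were read because miR-486 is also made in muscle. Of 5, none passed, and their values summed to 231, 236 and 331 in CMS 1, 2 and 3, against 272, 454 and 358 in Control 1, 2 and 3. Most of each sum was miR-499-5p, at 222 ± 44.6 in CMS and 304.3 ± 78.8 in Control (limma adjusted p = 0.295), while miR-1-3p was at 9.67 ± 5.51 in CMS and 21.7 ± 10.5 in Control (limma adjusted p = 0.258). Liver miRNAs, which circulate in plasma, summed to between 295 and 554 in CMS and between 409 and 595 in Control. Their sum was highest in CMS 3 among the CMS libraries and in Control 2 among the Controls, and 0 of 3 passed. The level of miR-194-5p was 96.3 ± 24.7 in CMS and 117.7 ± 19.8 in Control (limma adjusted p = 0.452), and the liver-specific miR-122-5p was at 7.33 ± 1.15 in CMS and 9.33 ± 3.51 in Control (limma adjusted p = 0.61).

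Among tissue markers, 0 of 6 choroid plexus and epithelial miRNAs tested, 0 of 4 neuronal and 0 of 3 oligodendrocyte miRNAs passed. The choroid plexus and epithelial list summed to between 723 and 1282 in CMS and between 690 and 1452 in Control, and it was highest in CMS 2 and Control 1. Most of it was miR-204-5p, at 1243 in CMS 2 and 1413 in Control 1. Among the CMS libraries, miR-200a-3p and miR-200b-3p were lowest in CMS 2, at 8 and 11. In CMS, miR-200b-3p and miR-200c-3p lay wholly above Control and miR-449a-5p wholly below, against 19.6% and 6.24% of all miRNAs. The oligodendrocyte list summed to between 1565 and 2599 in CMS, highest in CMS 1, and between 1495 and 1751 in Control. The neuronal list summed to between 90647 and 98699 in CMS, highest in CMS 3, and between 80985 and 110572 in Control, highest in Control 2. Control 2 was thus the highest Control in the endothelial, mural, muscle, liver and neuronal sums, and Control 1 in the other lists. In the neuronal sum it exceeded Control 3 (110256) by little, and miR-128-3p was high in both. Of the other neuronal rows, miR-138-5p was highest among the Controls in Control 2 (825), miR-9a-5p in Control 1 (59815) and miR-124-3p in Control 3 (2498). The part of these lists in the members' values was not tested.

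**Figure D5:**
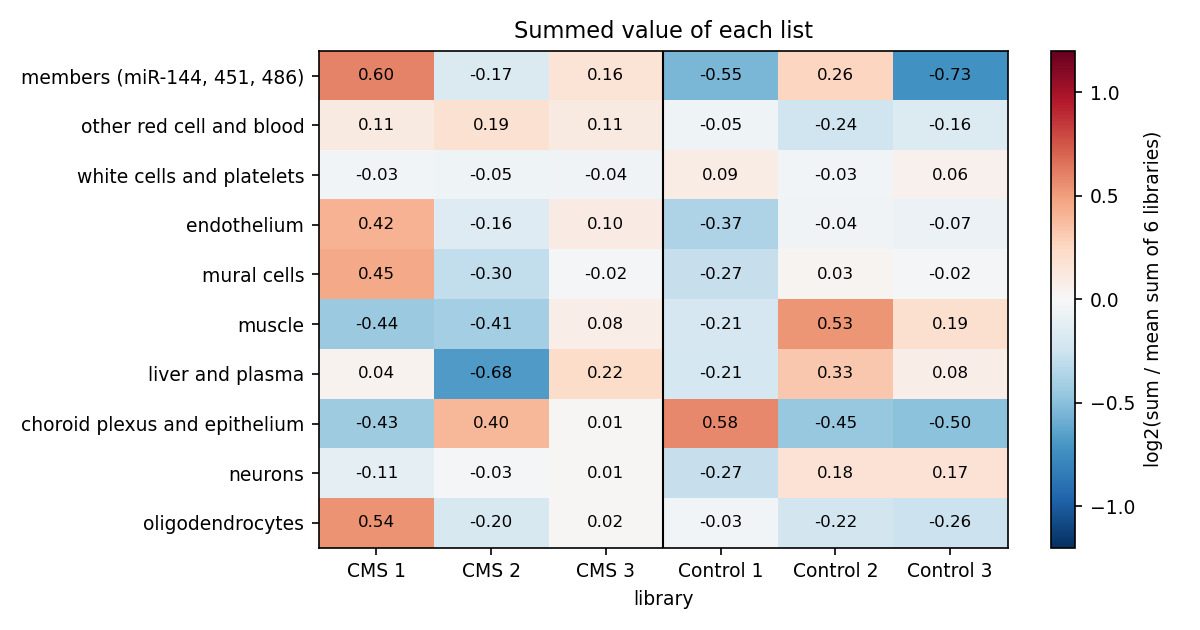
Summed value of the red cell members and of 9 marker lists in each library (columns, CMS left of Control), as log2 of the sum over the mean sum of the 6 libraries (colour and number). The members are at 0.60 in CMS 1 and 0.26 in Control 2, the endothelial list at 0.42 in CMS 1 and -0.04 in Control 2, and the white cell and platelet list stays between -0.05 and 0.09.

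Among 345 other annotated miRNAs with a mean of at least 10, those most like the members were found by Pearson's r of log2(value + 1) with the log2 of the members' sum over the 6 libraries. They are given as a description, being picked as the highest of 345 values. The most alike was miR-493-5p, encoded in the imprinted Dlk1-Dio3 locus, with r of 0.918 and values of 179, 121 and 147 in CMS 1, 2 and 3, against 124, 183 and 109 in Control 1, 2 and 3. It was followed by miR-29a-5p (0.895), miR-24-1-5p (0.889), miR-1839-5p (0.872), miR-139-3p (0.845), miR-674-3p (0.827), miR-10b-5p (0.811) and miR-674-5p (0.809). The most opposite were miR-324-3p (-0.837), miR-205 (-0.835) and miR-98-5p (-0.826). None of these 11 passed between CMS and Control. As the sum is mostly miR-451-5p where it is high (r of 0.976 between them), likeness to the sum is not likeness to every member: miR-1839-5p had an r of 0.906 with miR-451-5p, 0.132 with miR-486 and -0.383 with miR-144-5p.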

How the data were processed

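Small RNA libraries were made from total RNA of medial prefrontal cortex of 6 rats for an Illumina NextSeq run, per the labels' protocols. Novoalign 2.07.11 is named in the submitters' processing notes. For the genome build, miRNA annotation and normalization, nothing is given in the sources used here. The authors' deposited values are treated as a score, a normalized value rounded to whole numbers: library sums differ by 3.72%, and among low miRNAs (group mean 1 to 8) the replicate variance averaged 0.53 times the mean in CMS (195 miRNAs) and 0.471 times in Control (181 miRNAs), below what counted reads give. Blank cells were taken as 0.

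Samples were grouped by title. The members, lists and tests were chosen with earlier results of these data known. The test was limma-trend (limma 3.58.1, R 4.3.3) on log2(value + 1) for the 657 miRNAs that reached 1 in 3 or more libraries, adjusted over all of them by Benjamini-Hochberg (threshold 0.05). The added 1 makes log2 changes of low miRNAs too small. Correlations used all 720 pairings of the 6 libraries, and ratios all regroupings of 3 against 3, both two-sided. The fit was tested on simulated data. Named miRNAs are all members, up to 4 miRNAs per list by smallest p, and the 8 most like and 3 most opposite to the members' sum. Outside this rule, miR-101a-3p, miR-101b-3p, miR-204-5p, miR-223-3p, miR-106b-5p and miR-15a-5p were chosen after their values were seen. Sequences and coordinates are from RefSeq, GRCr8, which lists 4 of the 5 members in the table used.

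No shared shift was seen between libraries with the same replicate number, whose deviations correlated at -0.11, -0.02 and -0.05. This cannot show that the libraries were unpaired by design, and the main fit treats them as unpaired.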

Additional observations from a re-analysis of the deposited data

How the results depend on the processing

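The count of 0 members called was the same in 15 alternatives: quantile normalization, trimmed-mean rescaling, no filter, a minimum mean of 10 (which leaves 2 members), no trend, pseudocounts of 0.1 and 10, annotated miRNAs only, the replicate block, and each library left out (0 to 0), while calls over all miRNAs ranged from 1 to 55. The replicate block therefore changed no member's call. Each member kept its direction in every alternative that tested it. Over these the log2 difference of miR-451-5p lay between 0.93 and 1.86 (limma adjusted p from 0.0981 to 0.473), that of miR-486 between -0.24 and -0.0055 (0.386 to 0.99), that of miR-144-5p between -0.82 and -0.29 (0.123 to 0.392) and that of miR-144-3p between -1.27 and -0.28 (0.149 to 0.579). Quantile normalization and rescaling shifted all log2 differences by a median of -0.12 and -0.11, which is the size of the miR-486 difference. The median r of pairs lay between 0.323 and 0.489 under other scalings, linear values and pseudocounts, and between 0.105 (without Control 2) and 0.633 (without CMS 2) with each library left out. Without miR-144-3p, an alternative added after the data were seen, it was 0.27. With group means subtracted, also added, it was between 0.386 (without Control 2) and 0.937 (without CMS 2), and the cause was not tested. The log2 ratio of miR-144-5p to miR-144-3p turned to -0.0075 with a pseudocount of 10; the cause was not tested. The 3 ratios with miR-451-5p kept their direction in the 8 alternatives run for ratios, namely pseudocounts of 0.1 and 10 and each library left out. Ratios were not recomputed under the other alternatives. For miR-451-5p over miR-486 the exact permutation p was 0.2 with any CMS library left out. Depth is unknown, and rounding limits what the miR-144 arms can show.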
